A study of Drosophila melanogaster with 4 samples.

Results

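Unmarked domains are stretches of at least 50 kb of the Drosophila melanogaster chromosome arms in which no cluster of RNA polymerase II phosphorylated at serine 5 was called in CME-W1-Cl.8+ cells. Clusters with a positive score in any of 3 deposited lists were pooled on the 5 large arms, X, 2L, 2R, 3L and 3R, and overlapping clusters were merged into 5081 regions. The domains were chosen by the gaps between neighbouring merged regions: of 5076 gaps, 557 (11.0%) reached 50 kb and are the domains described here. Because the lists chose them, their lengths, places and borders are given as a description, with no test.

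The cells, a male line also called Clone 8 that comes from the wing (dorsal mesothoracic) disc at the third larval instar, were profiled by ChIP-seq with the rabbit polyclonal antibody ab5131. The 2 ChIP libraries have 1 cluster list each, and a combined list belongs to the series. The series also holds 2 libraries of input DNA, sonicated chromatin taken without the antibody, for which no cluster list was available here. All libraries came from this 1 line, with no treatment or mutation named in the labels. Nothing there says that replicates were separate cultures, and without read counts the depth of each library is unknown.

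Serine 5 in the C-terminal repeats of the polymerase is phosphorylated as transcription begins, and the mark piles up at promoters and in the first part of transcribed genes. In flies as in other animals, genes that a cell type does not use often lie side by side in long stretches of repressed chromatin, some bound by Polycomb proteins, some attached to the nuclear lamina, and some near the centromere in heterochromatin rich in repeats. The domains are free of called clusters, which is less than free of polymerase: occupancy too weak or too narrow to be called cannot be told apart from none. Positions follow FlyBase release 5, as the file headers state. The gene table used here follows release 6, and no genome of release 5 was used, so genes in the domains are not named and no sequence is shown.

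The unmarked domains took up nearly as much of the arms as everything else together. They covered 57.7 Mb, or 48.5% of the arms, while the merged regions covered 21.4 Mb (18.0%) and the 4519 shorter gaps 39.8 Mb. The domains thus held 59.1% of all sequence between merged regions although they were few among the gaps, whose median was only 5.21 kb. Each list gave about the same picture alone. Replicate 1 had 559 such gaps over 60.8 Mb (51.1% of the arms), replicate 2 had 564 over 60.5 Mb (50.9%), and the combined list had 555 over 57.8 Mb (48.6%). The replicates averaged 561.5 ± 3.54 gaps of this size and 51.0 ± 0.171% of the arms (SD, n = 2). Apart from stretches beyond the first or last cluster of a list, pooling can only shorten or split gaps, and the pooled share lies below that of each replicate.

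Short domains were the most numerous, and the lengths had a long upper tail. The median domain was 83.9 kb long, with quartiles of 62.9 and 127.8 kb, and 1 in 10 exceeded 177.3 kb. There were 238 domains of 50 to 75 kb, 107 of 75 to 100 kb, 119 of 100 to 150 kb and 58 of 150 to 200 kb. The long ones carried much of the sequence: the 212 domains of at least 100 kb held 58.5% of it, and the 35 of at least 200 kb held 15.9%. Between 200 and 300 kb there were 24, and 11 were longer than 300 kb. No domain measured between 267.5 and 306.2 kb. Replicate 1 alone had 227 gaps of at least 100 kb, 45 of at least 200 kb and 14 of at least 300 kb, and replicate 2 alone had 230, 43 and 13. The limit of 50 kb cut through a continuous distribution. The shortest domains measured 50090 bp (2R, 14339905 to 14389994), 50143 bp (3L, 11003243 to 11053385) and 50202 bp (X, 14766299 to 14816500). The longest gaps left out measured 49943 bp (3R, 6534927 to 6584869), 49877 bp (2L, 6972780 to 7022656) and 49856 bp (2L, 7834045 to 7883900).

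**Figure D1:**
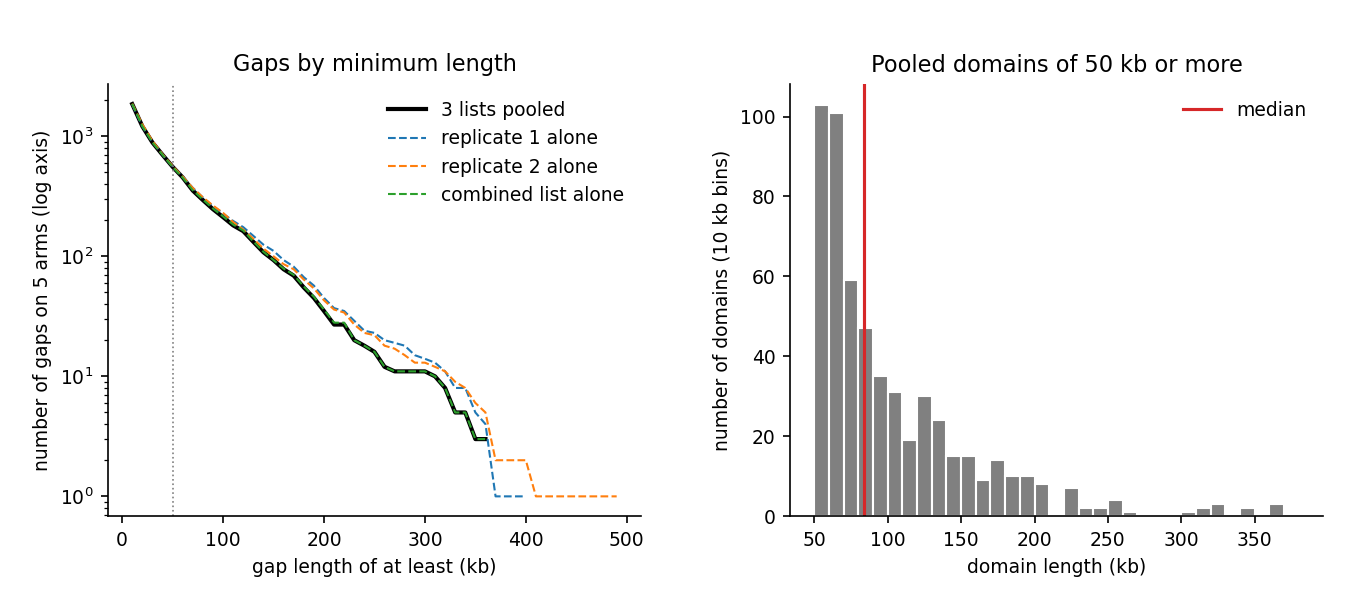
Left, the number of gaps between called regions on the 5 arms (log axis) that are at least as long as the value on the horizontal axis in kb, for the 3 lists pooled and for each list alone; the dotted line marks 50 kb. Right, the lengths of the 557 pooled domains in bins of 10 kb, with the median of 83.9 kb as a line; most are under 100 kb and 11 stand beyond 300 kb.

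Most domains had the same limits in both replicates. For 403 of the 557 domains (72.4%) the gap in replicate 1 was longer than the pooled domain by no more than 1 kb, for 423 (75.9%) this held in replicate 2, and for 359 (64.5%) in both. At the 920 edges of 1114 where both replicates had a bordering cluster, their edges lay a median of 39 bp apart, with quartiles of 14 and 103 bp, and the greatest distance was 3.14 kb. Of the gaps of at least 50 kb in replicate 1, 502 of 559 (89.8%) matched one of replicate 2 with 80% of each covered by the other, and in replicate 2 it was 502 of 564 (89.0%). A minority of the domains were pieces of a longer gap. In replicate 1, 47 domains (8.44%) lay in a gap at least 1.5 times their length, and in replicate 2 38 did (6.82%), 24 of them in both. The gap was at most 5.6 times the domain in replicate 1 and 4.07 times in replicate 2. Some domains were cut out by clusters that neither replicate list held. On 3L a 52.1 kb domain from 2982009 to 3034151 lay in a gap of 212.1 kb in each replicate, and a cluster of the combined list alone set its left edge. On 2R the domain from 15715265 to 15808205 measured 92.9 kb, but the gap around it was 282.8 kb in each replicate. In the other direction, 23 gaps of at least 50 kb in replicate 1 and 24 in replicate 2 held no domain, since clusters of other lists broke them into shorter gaps.

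The 15 longest domains ran from 251.1 to 368.7 kb and held 8.22% of the domain sequence. Arm 2L had 6 of them, 3L and 3R had 3 each, X had 2 and 2R had 1. The longest lay on 2L from 15772129 to 16140853, with a gap of 368.9 kb in replicate 1 and 369.1 kb in replicate 2. The next, on X from 20529635 to 20898061, was 368.4 kb long, and the gap there was 368.5 kb long in replicate 1 and 368.6 kb long in replicate 2. These 2 domains thus had almost the same length in each replicate. The longest after these, also on 2L, ran from 4465857 to 4828285, with gaps of 362.4 and 367.9 kb in replicates 1 and 2, and its left edge was a low-scoring cluster that replicate 2 did not list.

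Some of these domains ended at nearly the same base in both replicates. On 3R, the domain from 12479097 to 12806783 was 327.7 kb long with a gap of 327.7 kb in each replicate. Its left border, a 6.83 kb region, stood at score percentile 89.1 of replicate 2 and slightly higher in replicate 1, and its right border was lower, at percentiles 31.0 and 31.7. The score percentile is the share of a list's clusters on the large arms that score no higher. The 2L domains from 13906785 to 14232959 (326.2 kb) and from 17502085 to 17819203 (317.1 kb) also had the same gap length, to 3 digits or more, in each replicate. In 8 of the 15, both replicate gaps were within 1 kb of the pooled length.

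Others were less firmly bounded. The domain on 3L from 24219300 to 24529501 measured 310.2 kb in replicate 1 and in the pool, against 498.7 kb in replicate 2, the longest gap of any list, because replicate 2 lacked the 1.71 kb region at its left edge. On 3R the gap at 18608375 to 18875859 (267.5 kb) extended to 294.4 kb in replicate 1, and on 3L the gap at 23732873 to 23983981 (251.1 kb) extended to 287.9 kb in replicate 1. These 3 were the ones in which a replicate exceeded the pooled length by more than 10 kb. Of the 30 edges of the 15 longest domains, 24 were regions found in all 3 lists. The remaining 6 of the 15 were on 2L from 16911335 to 17259658 (348.3 kb) and from 14690413 to 14996589 (306.2 kb), on 3L from 23336737 to 23678443 (341.7 kb), on X from 14144841 to 14473668 (328.8 kb), on 3R from 6261679 to 6521318 (259.6 kb) and on 2R from 720771 to 977154 (256.4 kb). The last of these was the longest on 2R, the arm whose longest domain was the shortest among the 5. The domains of 348.3, 306.2 and 259.6 kb belong to the 8 within 1 kb of the pooled length in both replicates.

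**Figure D2:**
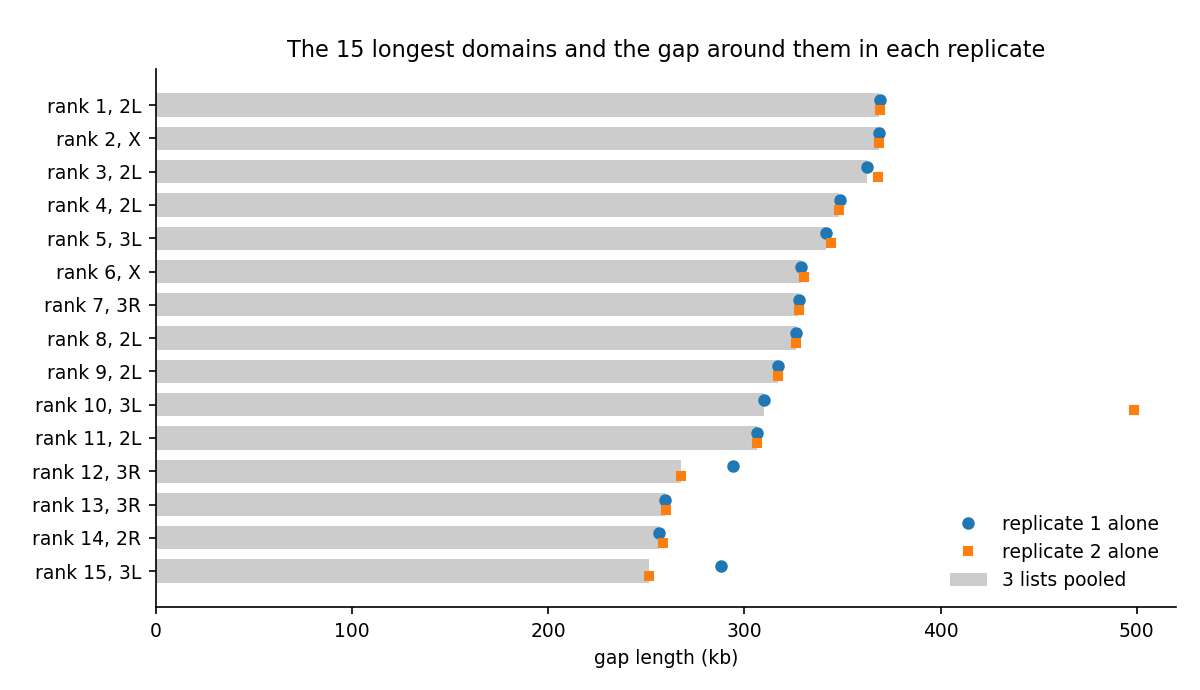
Length in kb of the 15 longest domains (grey bars, 3 lists pooled), in order of length and labelled by arm, with the gap around each in replicate 1 (circles) and replicate 2 (squares). Points sit at the end of the bar in most; the exceptions are rank 10 on 3L, with 498.7 kb in replicate 2, and ranks 12 and 15, with 294.4 and 287.9 kb in replicate 1.

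Domains lay next to each other more often than their share of all gaps. Around a domain, the next gap on either side was itself a domain in 196 of 1112 cases (17.6%), where domains made up 11.0% of all gaps. Each pair of neighbouring domains is counted from both sides here, and 98 regions had a domain on each side. The share was 14.2% for the second gap out, 12.3% for the third, 11.1% for the fourth and 10.9% for the fifth. The median of the next gap was 9.41 kb, against 5.21 kb over all gaps. In all, 173 domains (31.1%) had a domain as a direct neighbour on either side, with a single merged region between them. Because a domain counts here through either side, this share is not comparable with the 11.0% of all gaps.

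Chaining domains whose separating interval was at most 20 kb gave 98 larger tracts of 2 or more. They held 236 domains (42.4%), spanned 26.1 Mb (21.9% of the arms), and left 321 domains single. These sizes rest on the limits chosen: a bridge of 50 kb gave tracts over 40.9 Mb, and domains of at least 40 kb gave 152 tracts. Most were pairs: 72 tracts had 2 domains, 16 had 3, 7 had 4, 2 had 5 and 1 had 6. The median tract spanned 234.8 kb, and 7 spanned at least 500 kb. The marked share, which the limits on domains and intervals keep low, was 2.12% of their span over all tracts and between 0.255 and 6.84% in each. Arm 3L had 29 tracts, 3R had 24, 2L had 19, X had 15 and 2R had 11. Domains in tracts were about as long as single ones, with medians of 86.3 and 83.3 kb.

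The longest tract lay on 3L from 9895075 to 10623322, a span of 728.2 kb with 6 domains of 65.3, 250.3, 136.7, 96.1, 50.9 and 113.0 kb. Its 5 intervals were each a single region found in all 3 lists, from 2.11 to 6.48 kb wide, 15.9 kb in all. Their scores varied widely: the region from 10356032 to 10358408 reached score percentile 97.6 in a list, while the one from 10217198 to 10219311 reached no more than 36.8. The tract next in span, on 3R from 22088203 to 22687997, spanned 599.8 kb with 5 domains of 56.0 to 189.1 kb and 8 regions between them. Of these regions, 6 were in all 3 lists, and the median score percentile of an interval ran from 4.27 to 98.2. On 2L, 3 domains of 79.3, 196.1 and 306.2 kb made up a tract of 586.0 kb from 14410605 to 14996589, of which 0.744% was marked, by 2 regions of 2.12 and 2.24 kb. The remaining tracts of the 5 longest were also in part divided by weaker calls. The 572.5 kb tract on 2R from 15559067 to 16131604 held one of the highest-scoring clusters of these lists between its first domains, at 15612810 to 15617208, but also the 1.34 kb interval of the combined list alone that cut the 282.8 kb replicate gap. On X, from 14144841 to 14716727, 3 regions at score percentiles no higher than 45.1 divided 571.9 kb into domains of 328.8, 95.1, 67.8 and 72.4 kb, and 1 of the 3 was in the combined list alone.

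Most tracts were divided in both replicates. Of the 138 intervals between the domains of a tract, 114 broke the gap in each replicate, 19 were bridged by the gap of replicate 1, 15 by that of replicate 2, and 10 by both. In 96 of the 138 the interval was a single merged region, with a median width of 2.22 kb. Such lone regions were found in all 3 lists in 74 of 96 cases (77.1%), where 80.0% of all merged regions were, and 9 were in the combined list only.

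**Figure D3:**
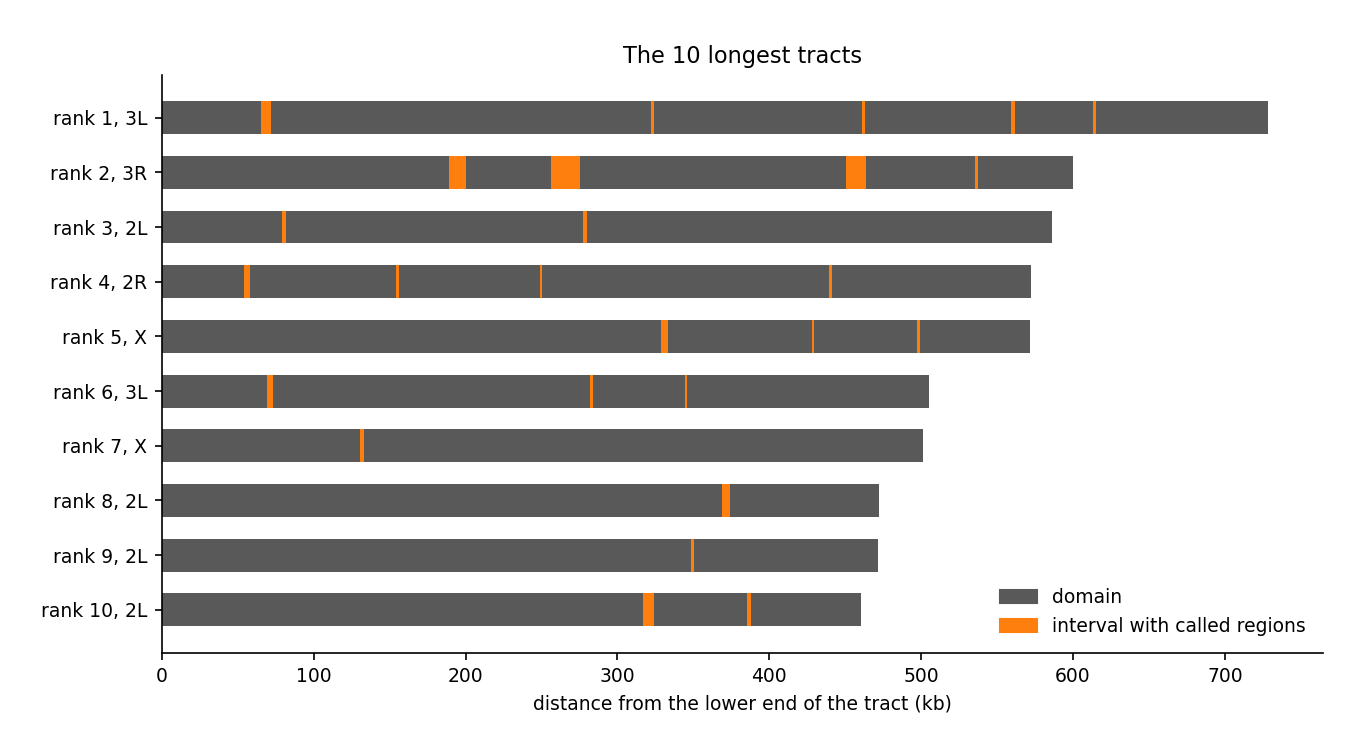
The 10 longest tracts, in order of span and labelled by arm, drawn to scale from their lower end in kb, with domains in grey and the intervals that hold called regions in orange. The longest, on 3L, spans 728.2 kb with 6 domains, and the intervals are narrow beside the domains in all 10.

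Domains lay along every arm, but unevenly. They covered 46.3% of X, 52.3% of 2L, 41.7% of 2R, 52.7% of 3L and 48.5% of 3R. In the replicates alone the covered shares were 49.7 ± 0.298% of X, 54.9 ± 0.366% of 2L, 44.9 ± 0.582% of 2R, 54.6 ± 0.363% of 3L and 50.2 ± 0.0312% of 3R (SD, n = 2 each). 2R was thus the lowest of the 5 in each replicate, whereas 2L and 3L, the highest, changed places between the replicates. X had a covered share within the range of the autosome arms, 46.3% against 49.0% of these arms together. Its median domain, 89.4 kb against 83.1 kb, was above that of each autosome arm, of which 2L came nearest with 86.5 kb. 3L had the most domains for its length, 5.30 per Mb, but the shortest median, 75.1 kb. On 2L, by contrast, 10 domains of at least 200 kb held 24.0% of the domain sequence, and on 2R, 3 such domains held 8.01%.

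Domains were not gathered at centromeres or telomeres as a whole. With the arm set from 0% at the telomere to 100% at the end next to the centromere, 129 domains (23.2%) had their middle in the 25% of the arm nearest the centromere, 282 (50.6%) in the middle 50% and 146 (26.2%) in the 25% nearest the telomere. Each decile of the arm length held 47 to 61 domains and had 40.1 to 54.9% of its sequence in them. Median length was also close between the 25% nearest the centromere, 87.8 kb, and the 25% nearest the telomere, 86.3 kb. Of the deciles, the one next to the centromere had the fewest domains, 47, but the longest median, 125.6 kb. The decile beside it had the shortest, 73.0 kb, and the rest lay up to 92.0 kb. Of the 35 domains of at least 200 kb, 10 lay in the 25% nearest the centromere and 5 in the 25% nearest the telomere. Among the 15 longest, 7 lay in the 25% nearest the centromere and 1 in the 25% nearest the telomere. Within 1 Mb of a centromere end lay 4 of them, all 3 from 3L and the one from 2R.

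The arms also differed at their centromere ends. Domains covered 86.1% of the last 1 Mb of 3L, which held only 10 merged regions, and 71.3% of the last 1 Mb of X. The shares were 50.4% on 2R, 49.1% on 2L and 38.8% on 3R. The replicates gave 89.8 and 88.5% on 3L and 77.8 and 77.4% on X, so that these ends stood above the other 3 in each. In the first 1 Mb from the telomere the shares were 54.1% on X, 30.4% on 2L, 46.1% on 2R and 31.7% on 3L, while 3R had 55.7%. For X that value depended on the list, at 62.2% in replicate 1 and 44.2% in replicate 2, and in replicate 2 the 99.4 kb domain near the tip, from 39501 to 138913, lay before the first cluster listed and so was left out. Repeats limit the placing of reads near centromeres, unsequenced stretches of the assembly were not looked at here, and the part of either in these values was not tested.

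Inside the arms, single windows were far apart. Domains covered 12.5 to 88.4% of the 117 full windows of 1 Mb, with a median of 47.7%, and none of the windows was without one. The window with most of its sequence in domains was on 2L from 14 to 15 Mb, with 88.4% of the window in domains in the pool and in each replicate, and 10 merged regions. 2L from 17 to 18 Mb followed with 83.2% (86.8% in each replicate), and 3L from 10 to 11 Mb with 79.8% (79.9 and 85.6%). At the other end, 3L from 21 to 22 Mb had 12.5% of the window in domains (12.5 and 18.8%). The longest stretch between 2 domains lay there, 859.3 kb from 21015884 to 21875220 with 55 merged regions and no gap above 49.3 kb. The next, on 3R from 19494164 to 20233796, spanned 739.6 kb. The median stretch from one domain to the next was 70.4 kb, and 34.8% of all such stretches together was marked. These windows were picked for their values.

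**Figure D4:**
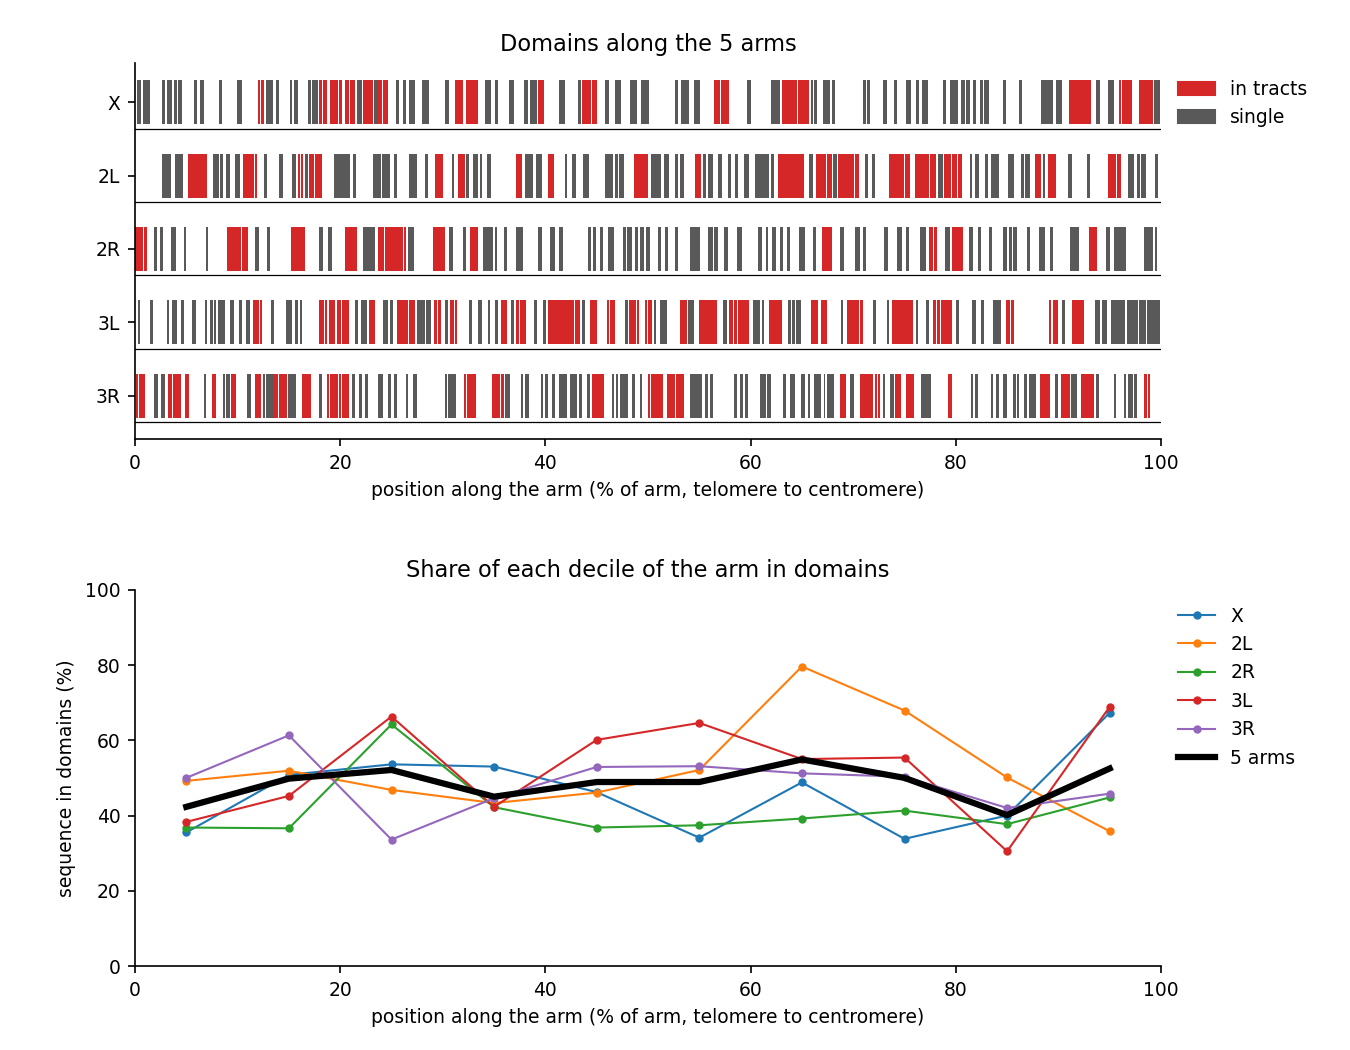
Top, the 557 domains drawn to scale along each arm in percent of its length, from the telomere (left) to the centromere end (right), with domains in tracts in red and single ones in grey. Bottom, percent of each decile of the arm covered by domains, per arm and over the 5 arms (black); the black line stays between 40.1 and 54.9%, while 2L reaches 79.6% between 60 and 70% and 3L 68.9% and X 67.3% in the last decile.

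The clusters that border the domains were ordinary in score and slightly narrow. The 1114 edges were set by 1016 merged regions of 5081, of which 98 had a domain on both sides. Bordering regions were 2.39 kb wide in the median, and the 4065 regions away from domains 2.75 kb. In replicate 1 the bordering clusters were 2.34 kb wide in the median and other clusters 2.60 kb, in replicate 2 they were 2.35 and 2.70 kb, and in the combined list 2.39 and 2.71 kb. The narrow width of 2 to 2.5 kb was shared by 33.0% of bordering regions and 24.6% of the others. Regions over 10 kb were fewer at the borders, 47 of 1016 (4.63%), against 287 of 4065 others (7.06%), where 6.57% of all merged regions were this wide. Above 20 kb the shares were close, with 15 bordering regions (1.48%), where 1.28% of all merged regions exceeded that width. The widest merged region of the arms, at 122.4 kb, was among them.

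Scores at the borders lay close to those of the lists as a whole. Bordering clusters of replicate 1 had a median score of 1.19, and its other clusters 1.18. In replicate 2 the medians were 1.20 and 1.19, and the combined list had 1.06 for bordering and 1.03 for other clusters. As a percentile within the list, the bordering median was 50.2, 50.5 and 50.9. In the top decile of a list by score stood 109 of 888 bordering clusters of replicate 1 (12.3%, where 10.0% of all its clusters did), 97 of 903 of replicate 2 (10.7%, against 10.0%) and 110 of 1007 of the combined list (10.9%, against 10.0%). The lowest decile of the 3 lists held 11.1 to 12.8% of their bordering clusters. Scores are the authors' own values for each cluster and were compared only within a list.

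Some of the highest-scoring clusters lay at the edge of a domain. Among bordering regions, the highest mean score percentile over the 3 lists belonged to a 6.63 kb region on 3L from 8667775 to 8674402, which scored 3.69 in replicate 1 and 3.68 in replicate 2 and closed a 70.7 kb domain. A 4.40 kb region on 2R from 15612810 to 15617208, with scores of 3.87 and 3.51, had a domain on each side, of 53.7 and 95.8 kb. On 2L a 2.50 kb region from 900274 to 902770 scored 3.63 and 3.60 in the replicates beside a domain of 173.8 kb. A 7.90 kb region on X from 5320198 to 5328096 (3.54 and 3.65) stood beside 82.0 kb, and a 4.76 kb region on 2R from 5439031 to 5443794 (3.46 and 3.39) beside 104.3 kb. Each was above 99% of the clusters of every list. The 98 regions with domains on both sides were mostly small, 2.23 kb wide in the median with a median best percentile of 51.6, against 51.7 for all merged regions. In the top decile of at least 1 list stood 19 of them (19.4%), where 12.3% of all merged regions did.

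Bordering regions were in all 3 lists slightly more often than the rest. Of the 1016, 843 were (83.0%, Wilson 95% interval 80.5 to 85.2%), against 79.3% of the 4065 others (78.0 to 80.5%) and 80.0% of all merged regions. The intervals treat regions as independent and are no test, since the same lists chose the borders. Only 2 of all 5081 merged regions were in both replicate lists without the combined list. Being in all 3 lists thus says little more than being in both replicates. In the combined list alone stood 74 (7.28%), where 8.92% of all merged regions did. Both edges were in all 3 lists for 380 domains (68.2%), 1 edge for 159 and neither for 18. Scores changed little with distance from a domain, counted in regions. The median best percentile of a merged region was 52.1 for the first region and 52.6 to 54.7 farther out in replicate 1, 51.4 and 52.1 to 56.1 in replicate 2, and 50.9 and 48.1 to 52.1 in the combined list. The median width was 2.39 kb at the first region and 2.68 to 2.94 kb farther out.

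**Figure D5:**
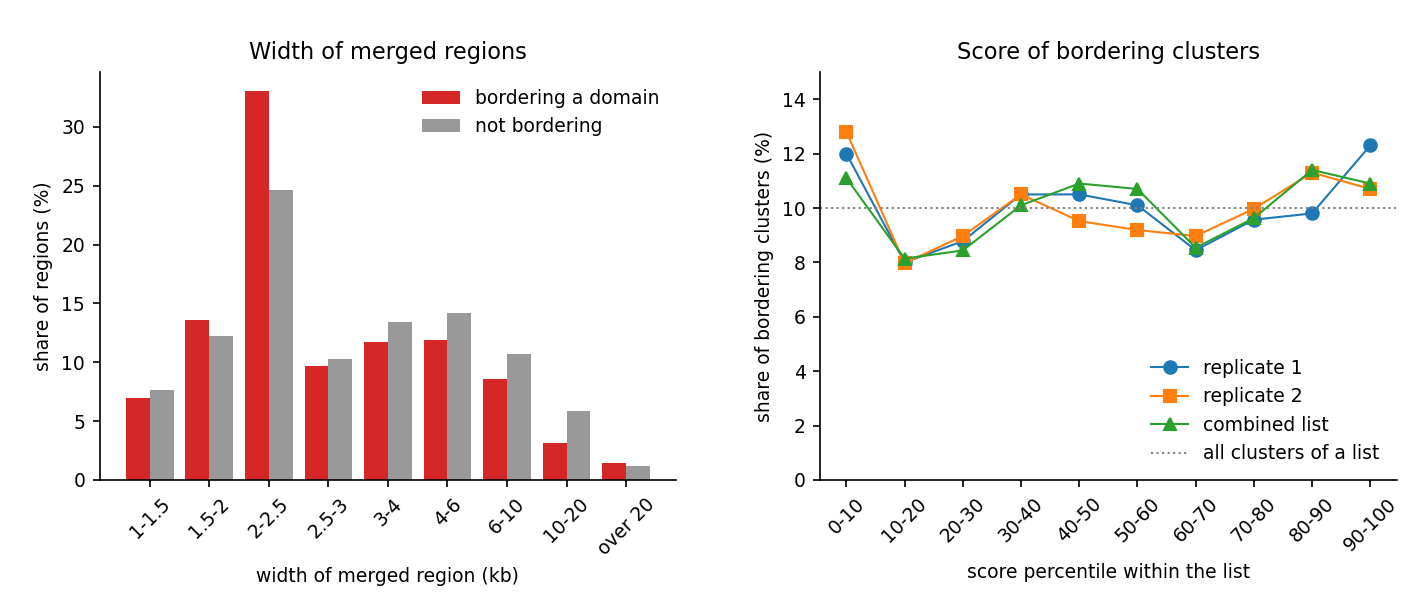
Left, share (%) of merged regions in each class of width in kb, for the 1016 that border a domain (red) and the 4065 that do not (grey). Right, share (%) of the bordering clusters of each list that fall in each decile of the list by score; the dotted line marks the 10% that all clusters of a list give, and the points lie between 7.97 and 12.8%.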

How the data were processed

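The authors deposited regions of significant enrichment or depletion with a score for each, on FlyBase release 5, per the file headers. The submitters' processing notes name the aligner Bowtie 0.12.7. Neither the caller of these regions and its threshold, nor how replicates were combined, nor read counts are given in the sources used here. Depth is therefore unknown, and a deeper library could shorten gaps. Groups and replicate numbers came from the sample titles.

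Clusters with a positive score on the 5 large arms were pooled over the 3 lists and merged where they overlapped by 1 bp. Gaps of at least 50000 bp between merged regions are the domains; stretches outside the first and last region of an arm were left out. Telomere and centromere ends follow the standard orientation of the arms, with arm lengths from the file headers. The members, the 20 kb bridge of tracts and the named regions (15 longest domains, longest per arm, 5 longest tracts, 3 gaps on each side of the limit, 5 highest-scoring borders) were chosen with earlier results of these data known. Other domains, windows and stretches were named after their values were seen. No test was made. Genes were to be named only with a release 5 annotation, which was not used here. Alternatives were each list alone, other gap and bridge limits and score filters. The code for gap finding was checked on simulated lists that shared the same regions, which the deposited lists do not. That check covers the code and not the domains. Python 3.11.15, numpy 2.4.6, pandas 2.3.3, statsmodels 0.14.6 and matplotlib 3.10.9 were used. Wilson intervals (95%) treat regions as independent.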

Additional observations from a re-analysis of the deposited data

How the results depend on the processing

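No paired analysis was possible because the results come from no test and no list of the input was available here. Of 67 alternative values for 8 results, 30 stayed within the limits set (1.5 times for numbers of domains and tracts, the spread between the replicates or the Wilson interval for other values), 37 moved by more, and none has a direction to reverse. The spread between the replicates is very small, so small moves count. Leaving out each replicate (the list of the other replicate alone) gave 559 to 564 domains, 60.5 to 60.8 Mb in domains, a median of 86.5 to 86.9 kb, 96 to 103 tracts over 26.8 to 27.9 Mb, 23.6 to 23.8% of domains in the 25% of the arm nearest the centromere and a median border percentile of 50.5 to 51.0, against 557, 57.7 Mb, 83.9 kb, 98 over 26.1 Mb, 23.2% and 50.5 in the pool. The combined list alone gave a median of 84.9 kb. Both replicate lists without the combined one gave 59.3 Mb, 85.1 kb and 23.7%. The upper 75% of each list by score gave 64.2 Mb, 90.6 kb, tracts over 31.7 Mb and 23.7%, and regions found in both replicates gave 61.5 Mb, 89.0 kb, 27.5 Mb and 23.3%. A minimum of 40 kb gave 64.2 Mb, 70.4 kb, 152 tracts over 35.5 Mb, 23.8% and a border percentile of 51.4. A minimum of 100 kb gave 212 domains, 33.8 Mb, 141.4 kb, 24 tracts over 7.89 Mb, 26.9% and 50.8. Bridges of 10 and 50 kb gave tracts over 20.7 and 40.9 Mb. The 10% of the arm nearest the centromere held 8.44% of the domains, and by width in place of score the median border percentile was 42.6. Except where a limit on length, a filter or the part of the arm sets the value by construction, the cause was not tested. The unknown depth and threshold of the caller limit every length given.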

Other observations

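Outside the large arms, gaps of at least 50 kb took up a different share of each sequence. They covered 19.5% of chromosome 4 (4 gaps, the longest 80.4 kb), the small and densely marked chromosome. In the heterochromatin sequences they covered 84.9% of 2RHet, 88.8% of 3LHet and 87.8% of 3RHet, with longest gaps of 915.4, 727.8 and 776.6 kb. In the shorter ones they covered 66.7% of YHet and 23.3% of 2LHet, by 1 gap each, and none of XHet, whose longest gap was 6.34 kb. On U, the unplaced sequence, they covered 91.4%. These sequences are joined from pieces and rich in repeats, so that a gap there is not comparable with one on an arm.

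Of the 19 depleted regions in the lists, counted over all sequences, 4 touched a domain, and 3 of these lay wholly inside one. Domains covered 48.5% of the large arms, but the 19 were not limited to these arms, so 4 of 19 is not comparable with that share. The 3, all of the combined list, were 1.46 to 1.73 kb wide and scored between -0.0852 and -0.00776. They lay on 2R from 3510058 to 3511512, on 2L from 1501922 to 1503644 and on 3L from 18018192 to 18019920.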
